A study of Mus musculus with 6 samples.

Results

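The genes described here are 36 genes of the lysosome: 10 cathepsins, 15 other hydrolases, 8 membrane proteins and 3 soluble cofactors. They were chosen by gene name, and all 36 were on the array, with 49 of its 55681 probes and 36 of its 34964 genes. Each of 6 arrays gave 1 value per gene, the log2 ratio of a sample labelled with Cy5 over a common reference labelled with Cy3, universal mouse RNA mixed from 11 cell lines.

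Samples of 4 groups from the mammary glands of virgin female mice of C57/B6 background were measured. KO macrophages were F4/80+ cells of conditional Dll1 knockout mice (cKO-Dll1, 2 arrays), and WT macrophages were F4/80+ cells of their wild type littermates (2 arrays). Dll1-high and Dll1-low cells were the mCherry+ and mCherry- fractions of CD24+ CD29hi epithelial cells, subpopulation P4, from Dll1-mCherry reporter mice (1 array each), labelled as mammary stem cells (MaSC). The labels name neither the Cre driver of the knockout nor the cells that lose Dll1, and do not say whether replicates came from separate animals, so p-values measure only the spread between these samples.

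Lysosomes are acidic organelles in which hydrolases break down protein, glycan, lipid and nucleic acid taken up from outside the cell or delivered by autophagy. Macrophages are rich in them, since they clear dead cells and debris, including those of the mammary gland as it is remodelled. Many lysosomal genes share the CLEAR element in their promoters, which is bound by the transcription factor TFEB and its relatives.

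Macrophage and basal markers differed between the cell types, but over all probes the arrays grouped neither by genotype nor wholly by cell type. Dll1, the gene behind the knockout and the reporter, had log2 ratios of 0.80 and 2.25 in KO macrophages (replicates 1 and 2), 0.78 and 3.24 in WT macrophages, 3.94 in Dll1-high cells and 3.26 in Dll1-low cells. The median of 12 macrophage markers was 4.06 and 4.49 in KO macrophages and 2.50 and 4.06 in WT macrophages, against -0.02 and 0.10 in Dll1-high and Dll1-low cells, and the median of 10 basal markers was 0.63 and 0.46, 0.62 and 0.29, against 4.52 and 3.86. Over all probes, KO replicate 2 correlated with WT replicate 2 at 0.944, while the 2 KO arrays correlated at 0.713 and the 2 WT arrays at 0.426. WT replicate 1 correlated best with KO replicate 1, at 0.681. Its correlations of 0.525 and 0.593 with the Dll1-high and Dll1-low arrays were lower than that, but above its 0.440 with KO replicate 2 and its 0.426 with WT replicate 2. Over the lysosomal genes alone, macrophage arrays correlated with each other at 0.757 to 0.987 and with the CD24+ CD29hi arrays at 0.220 to 0.380. WT replicate 1 had the lowest macrophage median of the macrophage arrays and the highest median of 9 fibroblast markers (-0.23 and -0.44 in KO macrophages, against 1.27 and -0.98 in WT macrophages). All 4 macrophage arrays lay on 1 slide and both CD24+ CD29hi arrays on another, scanned with another version of the software, so the cell types cannot be told apart from their slides and scans. Replicates 1 lay in the first row of the macrophage slide and replicates 2 in the second, and KO and WT lay in different columns, as did Dll1-high and Dll1-low.

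**Figure D1:**
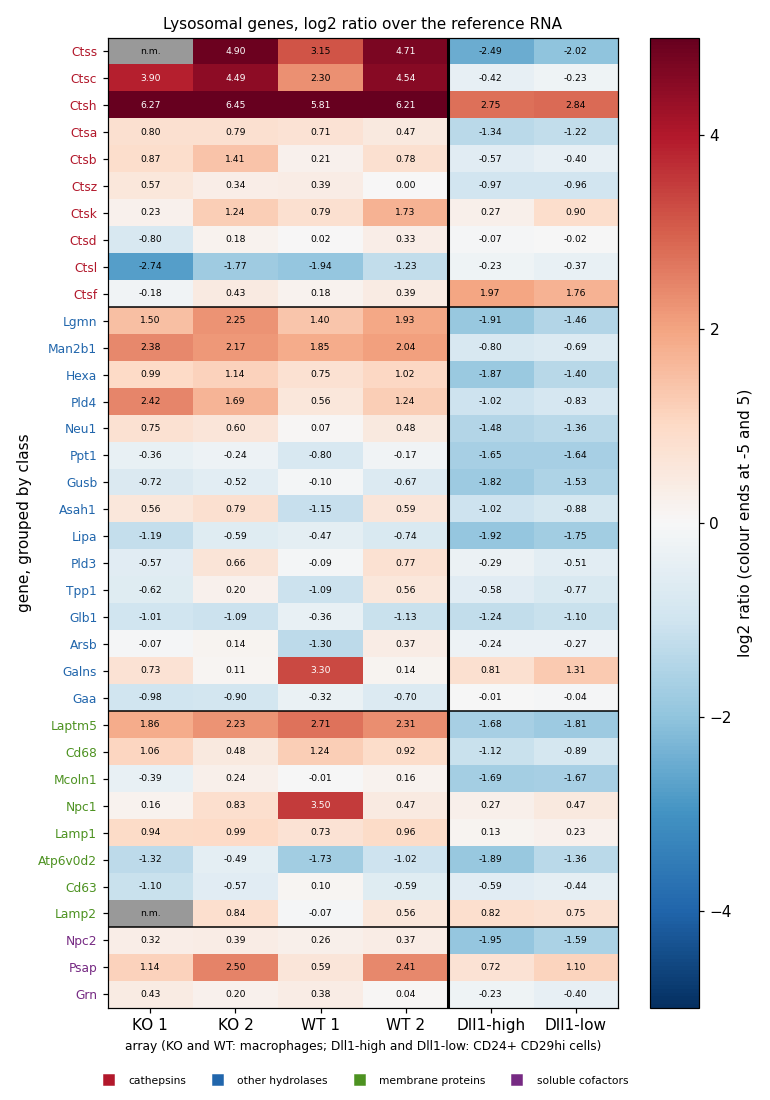
Log2 ratio over the reference RNA of each of the 36 lysosomal genes (rows, grouped by class) on each of the 6 arrays (columns), written in each cell, with grey cells for spots left out (n.m., not measured). Ctss, Ctsc, Ctsh and Laptm5 stand out on the macrophage side, Ctsf and Ctsl are higher on the CD24+ CD29hi side, and WT replicate 1 alone is high for Npc1 (3.50) and Galns (3.30).

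The first comparison was between the macrophages, KO and WT together, and the CD24+ CD29hi cells, Dll1-high and Dll1-low together. Neither side was made of replicates of 1 condition. The p-values therefore rest on a spread that includes genotype and Dll1 state, with 2 fractions of 1 subpopulation (correlation 0.961) standing as replicates. Of the 36 lysosomal genes, 18 were higher in macrophages and 1 was lower (limma, adjusted p under 0.05, 4 arrays against 2), where 4.48% of all genes were called higher and 3.81% lower. The median difference of the 36 genes was 1.12 on the log2 scale, beside 0.04 over all genes (0.449 beside -0.12 when arrays were centred on their median in place of loess), and 30 of 36 differences were above 0, against 54.9% of all genes. At least 2-fold higher were 19 of 36, against 7.79% of all genes. All 4 macrophage arrays lay above both CD24+ CD29hi arrays for 19 of the 34 genes measured on every array (18.7% of all genes) and below both for 3 (15% of all genes). In a bulk sample, fewer cells of a type and less RNA per cell cannot be told apart.

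Markers of other leukocytes were higher in the F4/80+ cells as well. Beside a median difference of 3.41 for the macrophage markers (6 of 12 called higher), it was 3.56 for monocyte markers (3 of 5), 3.97 for neutrophil markers (2 of 5), 1.93 for mast cell markers (0 of 6), 1.79 for B cell markers (2 of 5), 1.03 for T and NK cell markers (2 of 7) and 0.98 for endothelial markers (1 of 8). Differences of lysosomal genes below are therefore those of the F4/80+ samples as a whole, and the part of these other cells in them was not tested.

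**Figure D2:**
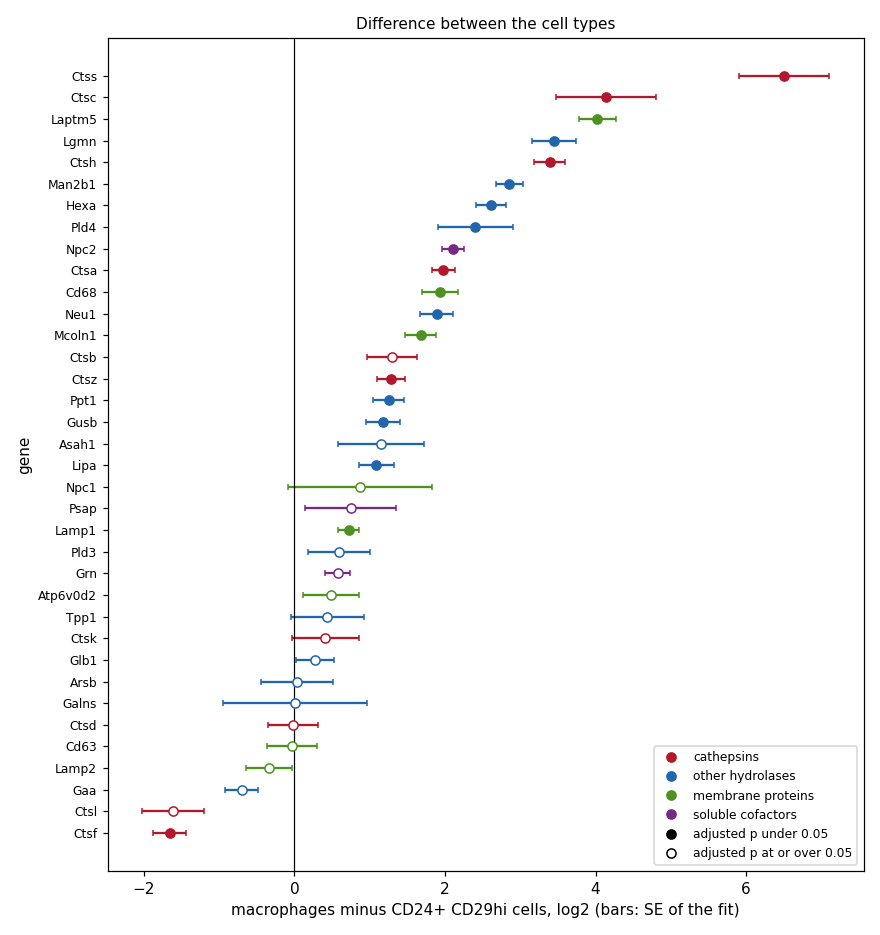
Difference between macrophages and CD24+ CD29hi cells on the log2 scale (horizontal axis, bars are the SE of the limma fit, 4 arrays against 2) for each lysosomal gene (vertical axis), coloured by class. Filled points passed adjusted p under 0.05: 18 genes lie to the right of 0, with Ctss at 6.51, and Ctsf at -1.66 lies to the left.

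The cathepsins, a group of lysosomal proteases, were the class with the widest spread. Of the 10, 5 were higher in macrophages and 1 lower, with a median difference of 1.29. The peptidases Lgmn and Tpp1 were counted with the other hydrolases. Ctss, the cathepsin S of antigen presenting cells that trims the class II invariant chain, had log2 ratios of 4.90 in KO replicate 2 and of 3.15 and 4.71 in WT macrophages, against -2.49 in Dll1-high and -2.02 in Dll1-low cells. Its spot on KO replicate 1 was left out as not uniform or as an outlier, so 3 macrophage arrays entered its fit. All 3 lay far above both CD24+ CD29hi arrays, and the difference of 6.51 (SE 0.596, adjusted p 0.00631), 91-fold, ranked 5 among all genes. Ctsc, the dipeptidyl peptidase that activates granule serine proteases, had 3.90 and 4.49 in KO macrophages and 2.30 and 4.54 in WT macrophages, against -0.42 and -0.23 in Dll1-high and Dll1-low cells. Its lowest macrophage value was on WT replicate 1, the groups did not overlap, and the difference was 4.14 (SE 0.661, adjusted p 0.0187). A second Ctsc probe gave a difference of 1.19.

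Ctsh, an aminopeptidase, was high in both cell types relative to the reference RNA and higher still in macrophages. Its log2 ratios were 6.27 and 6.45 in KO macrophages and 5.81 and 6.21 in WT macrophages, against 2.75 and 2.84 in Dll1-high and Dll1-low cells. The groups lay well apart (3.39, SE 0.204, adjusted p 0.00104), 10.5-fold, from a probe at chr9:89970828-89970887 on mm9. Ctsa, the carboxypeptidase that protects neuraminidase and beta-galactosidase, had 0.80 and 0.79 in KO macrophages and 0.71 and 0.47 in WT macrophages, against -1.34 and -1.22 in Dll1-high and Dll1-low cells. The macrophage arrays agreed closely (SD 0.154, n = 4) and the difference was 1.97 (SE 0.153, adjusted p 0.002), with 0.72 from a second Ctsa probe. Ctsz, a carboxypeptidase, had 0.57 and 0.34 in KO macrophages and 0.39 and 0.00 in WT macrophages, against -0.97 and -0.96 in Dll1-high and Dll1-low cells. All 4 macrophage arrays were above both others, by 1.29 on average (SE 0.186, adjusted p 0.0137). Calls were kept under 18 of the 19 alternatives tried for Ctsh, 17 for Ctsa, 15 for Ctss, 11 for Ctsc and 10 for Ctsz. With the authors' value table Ctsz was not called (limma, adjusted p 0.0927).

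Ctsf was the 1 lysosomal gene called lower in macrophages. This cysteine cathepsin had log2 ratios of -0.18 and 0.43 in KO macrophages and 0.18 and 0.39 in WT macrophages, against 1.97 and 1.76 in Dll1-high and Dll1-low cells. No macrophage array reached the CD24+ CD29hi arrays, and the difference was -1.66 (SE 0.216, adjusted p 0.0097), from a probe at chr19:4860454-4860513 on mm9. Ctsf kept its call under 13 of the 19 alternatives. It was not called with the scanner's processed signals or the authors' value table (limma, adjusted p 0.0645 in both). Ctsl, a broadly expressed endopeptidase, had -2.74 and -1.77 in KO macrophages and -1.94 and -1.23 in WT macrophages, against -0.23 and -0.37 in Dll1-high and Dll1-low cells. All 4 macrophage arrays lay below both others, but the difference of -1.61 (SE 0.407) had an adjusted p of 0.0747 and was not called. It was called without KO replicate 1.

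The remaining cathepsins were not called. Ctsb, an abundant endopeptidase and carboxypeptidase, had 0.87 and 1.41 in KO macrophages and 0.21 and 0.78 in WT macrophages, against -0.57 and -0.40 in Dll1-high and Dll1-low cells, a difference of 1.30 (SE 0.33, adjusted p 0.0761). Its groups did not overlap, and it was called without WT replicate 1. Ctsk, the collagen-degrading cathepsin of osteoclasts, had 0.23 and 1.24 in KO macrophages and 0.79 and 1.73 in WT macrophages, against 0.27 and 0.90 in Dll1-high and Dll1-low cells, so that the groups overlapped. Ctsd, the aspartic protease, had -0.80 and 0.18 in KO macrophages and 0.02 and 0.33 in WT macrophages, against -0.07 and -0.02 in Dll1-high and Dll1-low cells. Its difference of -0.02 (SE 0.335) lay inside the spread of the macrophage arrays (SD 0.505, n = 4).

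Among the other hydrolases, 8 of 15 were higher in macrophages and none was called lower, with a median difference of 1.15. Lgmn, the asparaginyl endopeptidase legumain that processes cathepsins and antigens, had 1.495 and 2.25 in KO macrophages and 1.40 and 1.93 in WT macrophages, against -1.91 and -1.46 in Dll1-high and Dll1-low cells. The groups were separated by 3.45 (SE 0.294, adjusted p 0.00256). Man2b1, the lysosomal alpha-mannosidase, had 2.38 and 2.17 in KO macrophages and 1.85 and 2.04 in WT macrophages, against -0.80 and -0.69 in Dll1-high and Dll1-low cells. Its 4 macrophage values lay within a narrow band (SD 0.223, n = 4) and the difference was 2.86 (SE 0.183, adjusted p 0.00119). Hexa, the alpha subunit of beta-hexosaminidase, had 0.99 and 1.14 in KO macrophages and 0.75 and 1.02 in WT macrophages, against -1.87 and -1.40 in Dll1-high and Dll1-low cells. That difference was 2.61 (SE 0.195, adjusted p 0.00183), 6.11-fold.

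Pld4, an endolysosomal exonuclease of the phospholipase D family that degrades single-stranded nucleic acid, varied most among the called hydrolases. It had 2.42 and 1.69 in KO macrophages and 0.56 and 1.24 in WT macrophages, against -1.02 and -0.83 in Dll1-high and Dll1-low cells, a difference of 2.41 (SE 0.502, adjusted p 0.0431). Its relative Pld3 overlapped between the cell types, with -0.57 and 0.66 in KO macrophages and -0.09 and 0.77 in WT macrophages, against -0.29 and -0.51 in Dll1-high and Dll1-low cells. Neu1, the lysosomal sialidase, had 0.75 and 0.60 in KO macrophages and 0.07 and 0.48 in WT macrophages, against -1.48 and -1.36 in Dll1-high and Dll1-low cells (difference 1.89, SE 0.218, adjusted p 0.00659). The other called hydrolases were Ppt1, which removes palmitate from proteins (1.25, adjusted p 0.0222), Gusb, beta-glucuronidase (1.18, adjusted p 0.0321, and 0.62 on its second probe), and Lipa, the acid lipase of cholesteryl esters (1.09, adjusted p 0.0449). Of the 19 alternatives tried, Pld4 kept its call under 8, Gusb under 7, Ppt1 under 6 and Lipa under 5.

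The 7 hydrolases that were not called included several whose macrophage arrays disagreed among themselves. Asah1, acid ceramidase, had 0.56 and 0.79 in KO macrophages and -1.15 and 0.59 in WT macrophages, against -1.02 and -0.88 in Dll1-high and Dll1-low cells. WT replicate 1 lay below both CD24+ CD29hi arrays while the other 3 macrophage arrays lay above them, and without it Asah1 was called. The mean difference between the cell types was 1.15, and 0.70 on a second Asah1 probe. Galns, which removes sulfate from keratan sulfate, had 0.73 and 0.11 in KO macrophages and 3.30 and 0.14 in WT macrophages, against 0.81 and 1.31 in Dll1-high and Dll1-low cells. Here WT replicate 1 was high, and the mean difference of 0.01 (SE 0.957) carries little. Gaa, acid alpha-glucosidase of glycogen, had -0.98 and -0.90 in KO macrophages and -0.32 and -0.70 in WT macrophages, against -0.01 and -0.04 in Dll1-high and Dll1-low cells. All 4 macrophage arrays were below both others, with a difference of -0.70 (SE 0.216, adjusted p 0.126), and its other 2 probes gave 0.02 and -1.42. Gaa was called lower under 4 alternatives: the mean of all probes, KO macrophages alone, without WT replicate 1, and macrophage replicates 2 alone. Tpp1, tripeptidyl peptidase, had -0.62 and 0.20 in KO macrophages and -1.09 and 0.56 in WT macrophages, against -0.58 and -0.77 in Dll1-high and Dll1-low cells. Glb1, beta-galactosidase, and Arsb, arylsulfatase B, differed by 0.27 (SE 0.255) and 0.04 (SE 0.477).

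Of the membrane proteins, 4 of 8 were higher in macrophages, with a median difference of 0.80. Laptm5, a membrane protein of haematopoietic cells, had log2 ratios of 1.86 and 2.23 in KO macrophages and 2.71 and 2.31 in WT macrophages, against -1.68 and -1.81 in Dll1-high and Dll1-low cells. The difference was 4.02 (SE 0.246, adjusted p 0.00107), 16.2-fold, from a probe at chr4:130490893-130490952 on mm9, and 3.78 from a second Laptm5 probe. Cd68, the macrophage sialomucin also called macrosialin, had 1.06 and 0.48 in KO macrophages and 1.24 and 0.92 in WT macrophages, against -1.12 and -0.89 in Dll1-high and Dll1-low cells. Its groups did not overlap (1.93, SE 0.24, adjusted p 0.0084), and a second Cd68 probe gave 1.90. Mcoln1, the calcium channel TRPML1, differed by 1.68 (SE 0.209, adjusted p 0.0084), but by 0.27 on its second probe. Lamp1, a main glycoprotein of the lysosomal membrane, differed by 0.72 (SE 0.139, adjusted p 0.0331), and this turned to -0.0848 when arrays were centred on their median in place of loess. Its call was kept under 6 of the 19 alternatives.

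The other membrane proteins were not called. Npc1, the cholesterol transporter, had 0.16 and 0.83 in KO macrophages and 3.50 and 0.47 in WT macrophages, against 0.27 and 0.47 in Dll1-high and Dll1-low cells, and its difference of 0.87 (SE 0.96) rested on WT replicate 1. Cd63, a tetraspanin of late endosomes, had -1.10 and -0.57 in KO macrophages and 0.10 and -0.59 in WT macrophages, against -0.59 and -0.44 in Dll1-high and Dll1-low cells. Atp6v0d2, a proton pump subunit best known from osteoclasts, had -1.32 and -0.49 in KO macrophages and -1.73 and -1.02 in WT macrophages, against -1.89 and -1.36 in Dll1-high and Dll1-low cells. It was well above background only on KO replicate 1 and in Dll1-low cells. Lamp2, the partner of Lamp1, differed by -0.34 (SE 0.306) without a value for KO replicate 1, and by 0.33 on its second probe.

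Among the soluble cofactors, Npc2, which hands cholesterol to Npc1, was the 1 called gene and the tightest of all 36 within macrophages. It had 0.32 and 0.39 in KO macrophages and 0.26 and 0.37 in WT macrophages (SD 0.0573, n = 4), against -1.95 and -1.59 in Dll1-high and Dll1-low cells. The difference was 2.11 (SE 0.151, adjusted p 0.00168), 4.31-fold. Grn, progranulin, had 0.43 and 0.20 in KO macrophages and 0.38 and 0.04 in WT macrophages, against -0.23 and -0.40 in Dll1-high and Dll1-low cells, without overlap but not called (0.58, SE 0.165, adjusted p 0.105). Psap, the precursor of the saposins that present sphingolipids to their hydrolases, overlapped between the groups (0.75, SE 0.606).

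**Figure D3:**
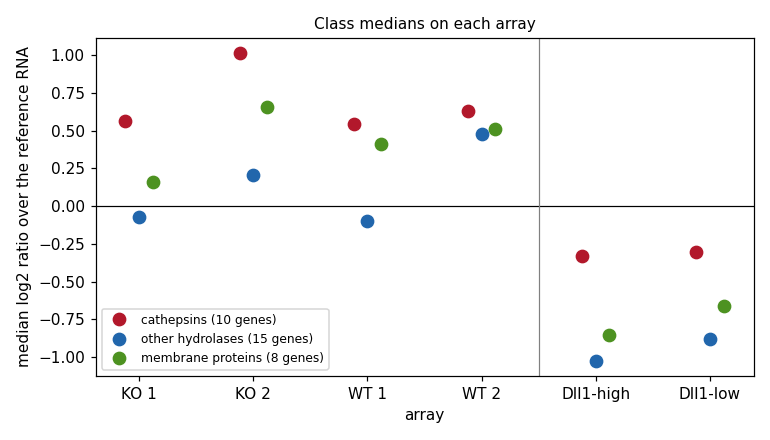
Median log2 ratio over the reference RNA of the cathepsins (10 genes), other hydrolases (15) and membrane proteins (8) on each array; each point is 1 class on 1 array, and the vertical line parts the 4 macrophage arrays from the 2 CD24+ CD29hi arrays. Each class lies higher on every macrophage array than on both CD24+ CD29hi arrays, for the cathepsins at 0.57 and 1.01 (KO), 0.55 and 0.63 (WT), against -0.33 and -0.30.

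The number of calls depended on which arrays entered the fit. Without Dll1-high, 6 of the 36 genes were called, and without Dll1-low 7: Ctsa, Ctsh, Hexa, Laptm5, Man2b1 and Npc2 both times, with Lgmn added without Dll1-low. Calls over all genes moved too, to 0.635% higher and 0.506% lower without Dll1-high, and 0.801% higher and 0.664% lower without Dll1-low. Without KO replicate 2 the number was 12, with 2.47% of all genes higher and 1.85% lower. Without WT replicate 1 it was 22, with 10.6% of all genes higher and 8.31% lower. With macrophage replicates 1 alone, 10 genes were higher and 1 lower (1.52% and 1.5% of all genes), and with replicates 2 alone, which resemble each other most, 27 were higher and 4 lower (20.7% and 23.2% of all genes). Laptm5 was called under all 19 alternatives tried for this comparison, and Ctsh and Man2b1 under 18, failing only with median centring, which left 1 gene higher (Laptm5) and 1 lower (Ctsf). Splitting by genotype, 19 genes were higher and 3 lower with KO macrophages alone (6.9% and 5.14% of all genes), and 3 were higher and none lower with WT macrophages alone (0.38% and 0.289%). The difference between these counts was not tested.

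Promoters were compared by letters alone, to show how the lysosomal genes that differ between the cell types vary in 2 known kinds of site. Of the 36 genes, 30 matched a RefSeq promoter (GRCm38.p6, 250 bases before to 50 after the start). These 30 genes had 33 promoters, and a gene was counted if any of its promoters held the letters. The CLEAR element was searched with all 10 of its letters, its inner 8 letters as TCACGTGA and the E-box inside both as CACGTG, and a site of the kind bound by PU.1, the Ets factor of myeloid cells, as GAGGAAGT, all on both strands. The full CLEAR letters were in 0 of the 30 (0.37% of 27025 genes with a promoter), the inner 8 letters in 3, Ctsa, Ctsd and Mcoln1 (10% against 1.12%), and CACGTG in 9 (30% against 8.09%). GAGGAAGT was in 4, Ctsc, Ctss, Gusb and Pld4 (13.3% against 3.69%), and all 4 were among the 17 genes called higher that matched a promoter (23.5%, against 0% of the 13 others). CACGTG lay the other way, in 4 of the 17 (23.5%) and 5 of the 13 others (38.5%). The motifs were picked with the differences known, so this is a description without a test. The split also shifts with the processing, since Pld4 and Gusb were not called with the authors' value table (limma, adjusted p 0.095 and 0.134).

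The promoters of Ctss and Pld4, higher in macrophages, Mcoln1 and Ctsa, also higher, Ctsd, whose cell types overlapped, and Ctsf, lower in macrophages, are shown because their motifs differ where their direction does or does not. Capitals mark the PU.1-type site, which reads ACTTCCTC where it lies on the other strand, or the CLEAR core or E-box.
Ctss, chr3:95526536-95526835, + strand: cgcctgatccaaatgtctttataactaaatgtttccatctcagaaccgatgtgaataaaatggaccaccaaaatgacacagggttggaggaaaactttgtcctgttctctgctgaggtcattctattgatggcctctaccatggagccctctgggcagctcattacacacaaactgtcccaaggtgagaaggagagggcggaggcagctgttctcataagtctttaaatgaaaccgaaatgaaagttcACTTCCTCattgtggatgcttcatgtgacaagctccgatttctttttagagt
Pld4, chr12:112760405-112760704, + strand: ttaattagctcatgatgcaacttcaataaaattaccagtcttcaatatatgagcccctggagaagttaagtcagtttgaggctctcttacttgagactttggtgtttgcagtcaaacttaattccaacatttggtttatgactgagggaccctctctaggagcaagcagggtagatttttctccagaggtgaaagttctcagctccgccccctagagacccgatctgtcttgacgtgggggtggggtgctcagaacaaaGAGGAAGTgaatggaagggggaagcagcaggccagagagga
Mcoln1, chr8:3500269-3500568, + strand: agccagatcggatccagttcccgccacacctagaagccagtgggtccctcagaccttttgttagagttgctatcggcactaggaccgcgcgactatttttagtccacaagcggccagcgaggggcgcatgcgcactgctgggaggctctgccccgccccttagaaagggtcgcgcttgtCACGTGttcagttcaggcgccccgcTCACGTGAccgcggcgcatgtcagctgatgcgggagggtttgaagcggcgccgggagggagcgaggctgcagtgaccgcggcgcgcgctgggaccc
Ctsa, chr2:164833523-164833822, + strand: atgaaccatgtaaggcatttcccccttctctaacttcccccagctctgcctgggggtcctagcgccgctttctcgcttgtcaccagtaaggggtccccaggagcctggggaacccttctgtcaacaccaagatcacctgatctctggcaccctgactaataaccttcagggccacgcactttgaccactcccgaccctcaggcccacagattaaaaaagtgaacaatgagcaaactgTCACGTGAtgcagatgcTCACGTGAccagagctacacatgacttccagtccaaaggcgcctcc
Ctsd, chr7:142387778-142388077, - strand: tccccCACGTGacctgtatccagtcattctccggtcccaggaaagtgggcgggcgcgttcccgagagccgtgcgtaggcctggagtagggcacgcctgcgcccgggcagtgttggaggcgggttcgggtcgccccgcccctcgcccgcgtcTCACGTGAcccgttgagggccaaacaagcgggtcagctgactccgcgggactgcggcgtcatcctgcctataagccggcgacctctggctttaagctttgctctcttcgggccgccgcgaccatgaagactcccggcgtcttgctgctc
Ctsf, chr19:4854915-4855214, + strand: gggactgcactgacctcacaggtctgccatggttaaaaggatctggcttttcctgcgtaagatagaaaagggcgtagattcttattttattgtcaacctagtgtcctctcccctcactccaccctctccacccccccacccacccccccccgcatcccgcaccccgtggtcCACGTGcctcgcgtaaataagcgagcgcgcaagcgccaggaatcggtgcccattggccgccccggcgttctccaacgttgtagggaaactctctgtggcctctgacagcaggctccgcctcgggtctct

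In Ctss the PU.1-type letters began 2 bases before the start. In Ctsa the CLEAR core occurred once 13 bases before the start and once 4 bases after it, in Mcoln1 46 bases before it and in Ctsd 99 bases before it. Ctsd and Ctsa both hold the core, while Ctsa differed by 1.97 and Ctsd by -0.02 between the cell types. Another Ctsa promoter, at chr2:164832622-164832921, held none of the motifs. Lamp1 held CACGTG 4 times within 61 bases before its start.

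Beyond the 36 genes, a list of 75 other lysosomal genes had 19 called higher in macrophages and 1 lower, where 4.48% of all genes were called higher and 3.81% lower. The median difference of the 75 was 0.59 (0.04 over all genes). The largest differences were in Plbd1, a phospholipase B-like protein (5.74, adjusted p 0.00156), Slc11a1, the metal transporter NRAMP1 of phagosomes (3.31, adjusted p 0.0084), and Ifi30, the thiol reductase GILT (3.10, adjusted p 0.0012). Lyz2, lysozyme, differed by 2.92 but was not called (adjusted p 0.184), with 0.13 in WT replicate 1 against 2.99 to 3.98 on the other macrophage arrays. Lower in macrophages was Hyal1, a hyaluronidase (-1.92, adjusted p 0.014). The cathepsin inhibitor Stfa2 (-2.46), Smpd1, acid sphingomyelinase (-0.85), and Idua, which acts on heparan and dermatan sulfate (-0.83), were not called. Of 15 proton pump genes, 5 were called higher in macrophages and none lower (4.48% and 3.81% of all genes). Of the 4 transcription factors Tfeb, Tfe3, Tfec and Mitf none was called.

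The second comparison asked how loss of Dll1 in the mice related to the lysosomal genes of their macrophages. No lysosomal gene was called between KO and WT macrophages: 0 of the 35 that passed the filter on signal (limma, 2 arrays against 2; 0% of 25010 genes, smallest adjusted p 0.999), and 0 of 35 at an unadjusted p under 0.05 (0.128% of genes). In simulated data of the same design, the fit called no gene given a known difference, large ones included, so the lack of calls does not show that the genotypes were alike. The median difference of the 35 was 0.10, beside -0.10 over all genes, and 20 of 35 differences were above 0, against 40.04% of all genes. Both KO arrays lay above both WT arrays for 6 of the 33 genes measured on all 4 arrays (6.65% of all genes), which were Ctsb, Ctsh, Ctsa, Neu1, Man2b1 and Pld4. They lay below both for 2 (13.5% of all genes), Laptm5 and Gaa.

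**Figure D4:**
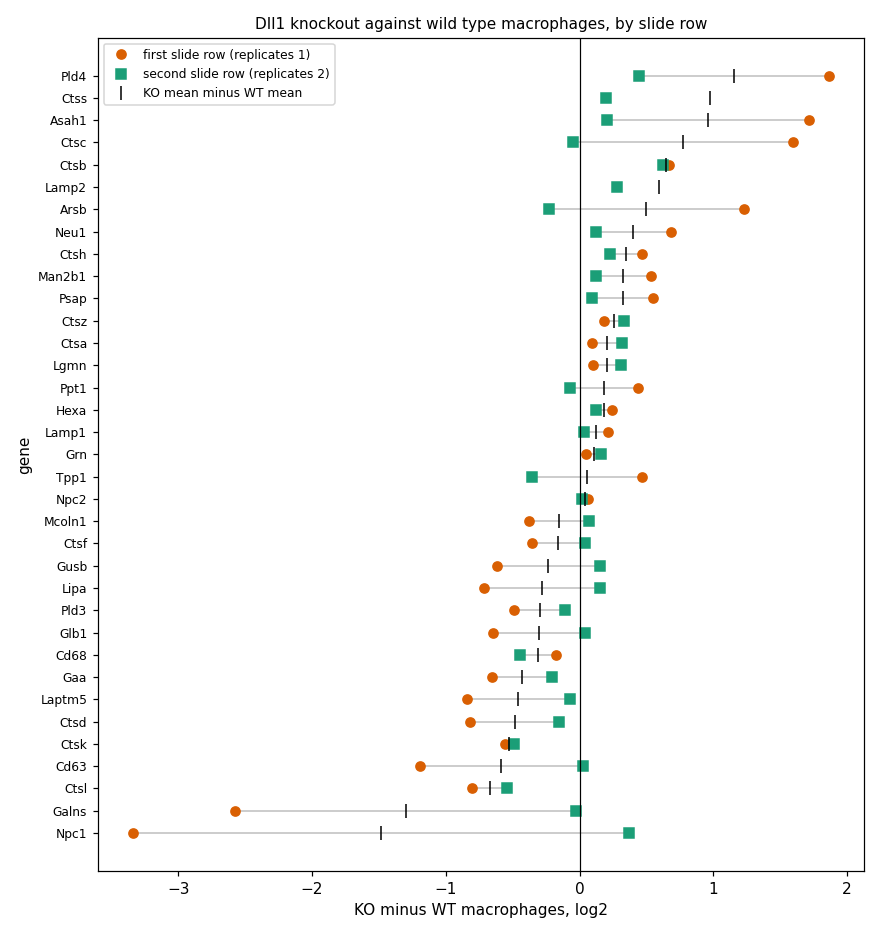
KO minus WT macrophages on the log2 scale (horizontal axis) for each of the 35 lysosomal genes that passed the filter, within the first slide row (circles, replicates 1), within the second (squares, replicates 2) and between the group means (bars). Circles reach from -3.34 (Npc1) to 1.86 (Pld4), while squares stay between -0.54 and 0.63. Ctss and Lamp2 have no circle, since KO replicate 1 has no value for them.

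The differences between the genotypes were mostly differences within the first slide row. There, 7 of 34 lysosomal genes were at least 2-fold apart (26.8% of genes), with a median size of 0.56, and in the second row 0 of 36 were (0.88% of genes), with a median size of 0.16. The 2 KO arrays differed by a median of 0.53 over the same genes, and the 2 WT arrays by 0.57, so the spread between replicates was as wide as the difference in the first row. The macrophage marker median was lower in WT replicate 1 than on the other 3 macrophage arrays and the fibroblast marker median higher, as given above, with 8 and 7 of the 9 fibroblast markers well above background in KO macrophages, against 8 and 8 in WT macrophages. Endothelial markers had medians of 1.35 and 1.81 in KO macrophages, against 2.29 and 2.31 in WT macrophages, and 8 of 8 were lower in KO on average (-1.09 and -0.75 in the rows). B cell markers were higher in KO for 5 of 5 (1.47 in the first row, -0.05 in the second), and the mast cell marker median differed by 2.14 in the first row and -0.02 in the second. Monocyte markers were higher in KO for 4 of 5 (1.12 and 0.19 in the rows). The same held for 3 of 4 neutrophil markers (1.15 and -0.19) and 5 of 6 T and NK cell markers (0.59 and 0.03). Macrophage markers were higher in KO for 11 of 12, with medians of 0.72 in the first row and 0.38 in the second. Fibroblast markers were higher in KO for 0 of 8 tested, with medians of -1.60 and 0.43 in the rows. Over all genes, 40.04% of differences were above 0. None of these markers was called. The part of these cells in the differences was not tested.

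Pld4 had the smallest p, with 2.42 and 1.69 in KO macrophages against 0.56 and 1.24 in WT macrophages. Both KO arrays were higher, by 1.15 on average (SE 0.463, unadjusted p 0.0647, adjusted p 0.999), with 1.86 in the first row and 0.45 in the second. Ctsb, with 0.87 and 1.41 in KO macrophages against 0.21 and 0.78 in WT macrophages, differed by almost the same amount in both rows (0.67 and 0.63). Its mean difference was 0.65 (SE 0.41, unadjusted p 0.187). Asah1 differed by 0.96 (SE 0.679, unadjusted p 0.228), with 1.71 in the first row and 0.20 in the second, and by 0.09 without WT replicate 1. A second Asah1 probe gave 1.53 without overlap. It had 1.33 and 0.74 in KO macrophages, against -1.32 and 0.33 in WT macrophages. Neu1 differed by 0.40 (SE 0.342, unadjusted p 0.304), with 0.68 and 0.12 in the rows. Ctsc differed by 0.77 on average (SE 0.858), with 1.60 in the first row and -0.05 in the second, and Ctss, without a value for KO replicate 1, by 0.20 in the second.

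On the lower side, Npc1 had the largest mean difference (-1.49, SE 1.12, unadjusted p 0.253), with -3.34 in the first row and 0.37 in the second. Without WT replicate 1 it was 0.03. Galns behaved alike, with -1.30 on average (SE 1.16), -2.58 and -0.02 in the rows and 0.28 without WT replicate 1. Cd63 differed by -0.58 (SE 0.43, unadjusted p 0.243), with -1.20 in the first row and 0.03 in the second. Ctsl differed by -0.80 and -0.54 in the rows and by -0.67 on average (SE 0.517, unadjusted p 0.26), and its arrays overlapped. Gaa differed by -0.43 (SE 0.334, unadjusted p 0.266), with -0.65 and -0.20 in the rows. Ctsk differed by -0.56 and -0.49 in the rows, with its 4 arrays overlapping between the genotypes.

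By class, the median KO minus WT difference was 0.23 for the cathepsins (-0.67 to 0.97), 0.18 for the other hydrolases (-1.30 to 1.15) and -0.31 for the membrane proteins (-1.49 to 0.60). Within rows the membrane proteins had medians of -0.38 and 0.05, so that the direction was not the same in both. Second probes gave the opposite sign for Cd68 (0.92 against -0.31), Ctsd (1.15 against -0.49) and Gusb (0.48 against -0.24). Of the other 2 Gaa probes, 1 gave the opposite sign as well (0.44 against -0.43) and 1 the same (-0.19). Atp6v0d2 did not pass the filter: its signal was well above background on 1 of 2 KO arrays and on neither WT array, and the log2 ratios given above overlapped between the genotypes. Of the other lysosomal genes, 0 of 70 were called (limma).

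The third comparison was between Dll1-high and Dll1-low CD24+ CD29hi cells, with 1 array each and so no replicate check and no test. No lysosomal gene was at least 2-fold apart (0 of 36, where 0.196% of 32135 genes were). Of the 36 genes, 27 were lower in Dll1-high cells and 9 higher (55.97% of all genes were lower), with a median difference of -0.13, beside -0.03 over all genes. For scale, among the 399 probes spotted 10 times, a difference between these arrays varied over its spots with an SD of 0.13 at the median probe and 0.259 at the 95th percentile. That covers spot error alone, not the spread between animals.

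**Figure D5:**
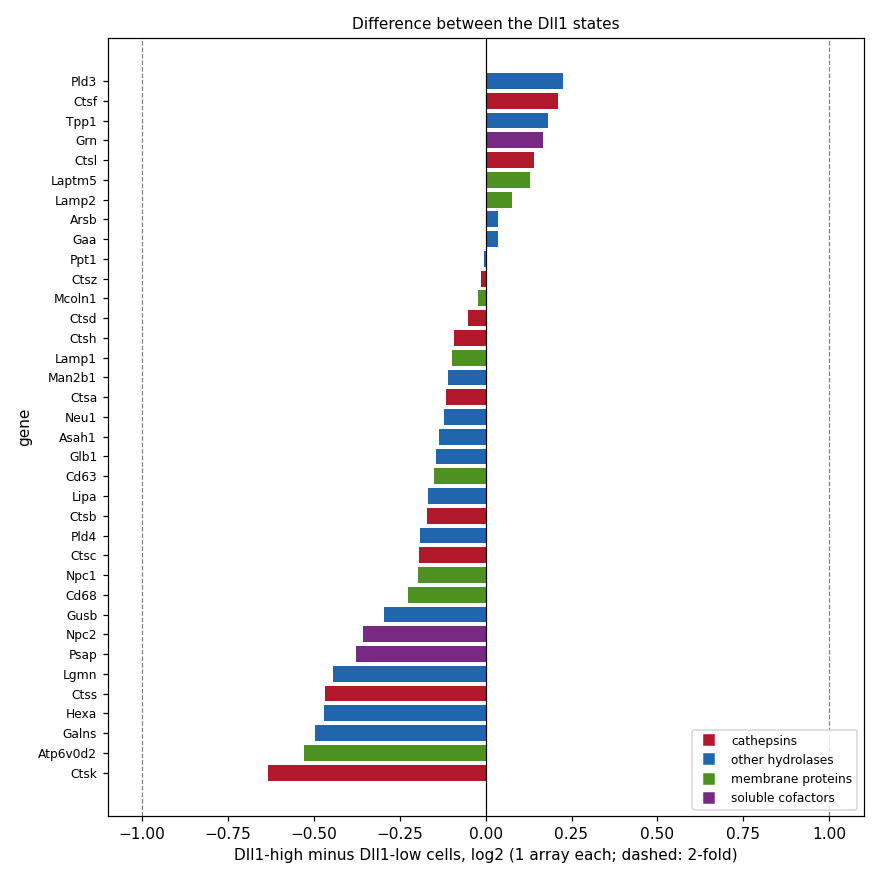
Dll1-high minus Dll1-low cells on the log2 scale (horizontal axis, 1 array each) for each of the 36 lysosomal genes, coloured by class, with dashed lines at a 2-fold difference. All bars stay inside the dashed lines, between -0.63 (Ctsk) and 0.23 (Pld3), and 27 point to the lower side.

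Ctsk had the largest difference, with a log2 ratio of 0.27 in Dll1-high against 0.90 in Dll1-low cells (-0.63), and was the 1 gene at least 1.5-fold lower (1.58% of all genes were), while 0 of 36 were at least 1.5-fold higher (0.685% of all genes). Atp6v0d2 had -1.89 in Dll1-high cells, where its signal was not well above background, against -1.36 in Dll1-low cells. It was at least 1.29-fold higher in Dll1-low cells, a bound set on normalized Cy5 signals alone, which a dye bias can move, and its second probe differed by 0.03. Galns had 0.81 in Dll1-high against 1.31 in Dll1-low cells (-0.50), and Hexa -1.87 against -1.40 (-0.47). Ctss, Lgmn, Psap and Npc2 were also lower in Dll1-high cells, by -0.47, -0.44, -0.38 and -0.36 as differences. These 7 genes other than Atp6v0d2 differed by more than 0.259, the 95th percentile over probes of the SD between spots. Gusb (-0.297) did as well, but its second probe gave 0.145. An SD gives the usual size of an error and not its limit, so whether these differences exceed spot error was not tested.

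On the higher side the differences were small. Pld3 had -0.29 in Dll1-high against -0.51 in Dll1-low cells (0.23), and Ctsf 1.97 against 1.76 (0.21). Tpp1 had -0.58 against -0.77 (0.18) and Grn -0.23 against -0.40 (0.17). All were smaller than 0.259, the 95th percentile over probes of the SD between spots. The class medians were -0.10 for cathepsins, -0.13 for other hydrolases and -0.12 for membrane proteins, so the classes lay close together. Macrophage markers had a median of -0.02 in Dll1-high and 0.10 in Dll1-low cells, with 12 of 12 well above background in both, and fibroblast markers -0.49 in Dll1-high against -0.04 in Dll1-low cells, with 9 of 9. Their part in the differences was not tested. Of 73 other lysosomal genes, 49 were lower in Dll1-high cells (55.97% of all genes were). The 1 gene of these 73 that was 2-fold apart (0.196% of all genes were) was the cathepsin inhibitor Cst6 (1.59, with -0.51 in Dll1-high against -2.10 in Dll1-low cells), named after its value was seen.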

How the data were processed

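Each of the 6 arrays, 62976 spots with 3671 controls, was deposited by the authors as a scanner file. Per the file headers, median spot and local background signals are intensity values from Agilent Feature Extraction (12.0.2.2 for macrophages, 11.0.1.1 for CD24+ CD29hi cells; 11.0 per the submitters' processing notes), the processed signals are background-subtracted and dye-normalized intensity values, and the log ratio is a log10 of Cy5 over Cy3. Values in the table deposited by the authors are log2 ratios, which followed the scanner's log ratio with slopes of 1.00 to 1.01 and have column medians of -0.12 to 0.14 (further steps: not given in the sources used here). Dyes were never swapped.

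Here the median signals were corrected with limma's normexp (offset 50) and loess within each array. Between 170 and 500 spots per array that the scanner software marked as outliers were dropped, the other spots of a probe averaged, and a gene read from its probe of highest mean signal. Genes were tested with limma 3.58.1 (R 4.3.3, version 1.17.8 of data.table) and Benjamini-Hochberg adjustment over all genes, called under 0.05: between cell types without a filter, and KO against WT for genes whose Cy5 signal was well above background on 2 or more of 4 arrays. Dll1 states were compared by their difference, with 1 such array of 2 required. Cy5 was well above background for 63.5% and 47.4% of spots in KO macrophages, 71.9% and 50.9% in WT macrophages, 86% in Dll1-high and 88.1% in Dll1-low cells, and the number of arrays limits precision. A bound sets the brighter group's mean Cy5 signal against the higher of the dim probe's own signal and the lowest signal well above background. The tests were tested on simulated data.

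Values on every array are given for the 12 largest called differences between cell types in each direction, 4 genes in each direction between genotypes (2-fold apart without overlap, filled by smallest p) and between Dll1 states, and every cathepsin, and of the other lysosomal genes the 4 largest differences between cell types in each direction. The 36 genes, the lists and this rule were chosen with earlier results of these data known. Alternatives were other background corrections, normalizations, probe choices, filters, models and subsets of arrays; the fits on macrophage replicates 1 or 2 alone were added after seeing the data.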

Additional observations from a re-analysis of the deposited data

Results flagged for a closer look

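Among the 34 lysosomal genes measured on all 4 macrophage arrays, 2 had 1 array far from the other 3 by Dixon's ratio at its 95% critical value, which chance exceeds in about 1 in 20 groups. In both the array was WT replicate 1. Glb1, beta-galactosidase, had -0.36 there, against -1.13 to -1.01 on the other 3 macrophage arrays (ratio 0.846). Asah1, acid ceramidase, had -1.15 there, against 0.56 to 0.79 on the other 3 (ratio 0.883).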

How the results depend on the processing

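Between macrophages and CD24+ CD29hi cells, 19 lysosomal genes were called, and 12 with the scanner's processed signals, 12 with the authors' value table, 12 with the Cy5 channel alone, 8 with limma's treat (minimum of 1 on the log2 scale), 3 with WT macrophages alone, 11 with macrophage replicates 1 alone and 31 with replicates 2 alone. Median centring left 2, moved the median difference of all genes to -0.12 (0.04 with loess), lowered that of the lysosomal genes to 0.449 (1.12 with loess; cathepsins 0.566, other hydrolases 0.443, membrane proteins 0.322), and turned Lamp1 to -0.0848; the cause was not tested. Galns was -0.93 with replicates 2 alone. Leaving out 1 array gave 6 to 22 calls. The remaining alternatives (mean of all probes, filter, 3 groups, KO macrophages alone, robust with a trend) gave 16 to 22. Between KO and WT, 0 genes were called under each alternative run, which says nothing about stability, since the fit called none of the simulated differences either, and at an unadjusted p under 0.05 there was 1 with the Cy5 channel alone and 7 without WT replicate 2. Median centring moved the KO minus WT median of all genes to 0.47 and that of the lysosomal genes to 1.104, so directions between genotypes hold for loess only. Same-numbered macrophage arrays deviated together (correlation 0.595), which rests on 2 pairs whose number is also the slide row; with the replicate block 0 genes were called. Between Dll1 states, 1 gene was 2-fold apart with processed signals and 1 with the authors' values, Atp6v0d2 both times (-2.40), and 1 gene at 1.5-fold, Ctsk. Precision is limited by 2 arrays or 1 array a group and by signals near background on the macrophage arrays.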
